A study of Bos taurus with 15 samples.

Results

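The change of the bovine endometrium between day 15 and day 18 of the estrous cycle was measured on 8 of the 15 arrays of this series, 4 cyclic cows of day 15 (NP15) and 4 cyclic cows of day 18 (NP18). They were chosen by the phase in the sample labels, not by any measured value. The other 7 arrays came from pregnant cows, 3 of day 15 (P15) and 4 of day 18 (P18), and entered here only for the shared estimate of the spread and for 1 comparison at the end. All cows were Japanese Black, kept at 1 ranch and slaughtered. Days were counted from insemination as day 1, and the cyclic cows were those in which no conceptus tissue was seen in the uterus. The tissue was caruncular endometrium, the raised areas where the placenta would attach, from the uterine horn on the side of the corpus luteum. RNA of 1 cow was hybridised to each 1-colour oligonucleotide array, so n = 4 cows on each day, with no cow sampled on both days. The ages of the cows were not given in the sources used here.

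On the earlier day a cow has a mature corpus luteum and high progesterone, which holds the endometrium in a secretory state and keeps the oxytocin receptor low. When no conceptus signals, this block wanes, estrogen action rises, and oxytocin acting on its receptor in the uterine epithelium drives pulses of prostaglandin F2alpha. These pulses end the life of the corpus luteum, a process called luteolysis. The later day lies around that switch, and individual cows can be before, in or after it.

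Expression is given as a signal in array medians, that is, the processed spot intensity divided by the median intensity of all non-control probes on the same array. A level of 1 array median is thus the brightness of a typical probe, and levels of different genes cannot be set against each other on this scale. The 8 probes below are those on which the results turn: the receptors of the luteolytic switch, large rises in a chemokine, an endothelial adhesion molecule and a peptide hormone, and the main falls. The first 30 of the 60 bases of each probe are shown, 5′ to 3′, as the array files list them, and their positions in the genome were not analysed here.
OXTR: gattctcttcggagactgtctggcacaggc
PGR: tcccgggcactgagtgttgaatttccagaa
CCL2: tccctgggatggtggaagtgtcctcgcaag
SELE: tgtctacaatcacagctactgtacgtaaca
NPPC: gtaactaaatgaaagaagtcaatcattgta
IGFBP1: tctgtggccgtcagaggggaccccaaatgc
STAC: tccagcctcctcctagcattcagactcgca
PTGDS: gccatccatgcccccctcagctttattccc

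The arrays of both days differed in brightness and in when they were read. The median intensity was 315 to 409 on the 4 NP15 arrays and 790 to 838 on the 4 NP18 arrays, and 78.4% to 85.1% against 73.1% to 76.8% of probes were well above background. Correlations between arrays were 0.965 to 0.983 within NP15, 0.958 to 0.984 within NP18 and 0.946 to 0.970 across the days. The NP15 arrays were scanned on 3 days and the NP18 arrays together on 1 day, no scan day or slide held cows of both cyclic groups, and cycle day and scan day therefore cannot be told apart for any gene. The tissue held what its label says: all 5 epithelial markers on the array (KRT8, KRT19, EPCAM, CDH1 and CLDN4) and all 7 stromal markers were above background on all 8 arrays. Of 6 trophoblast markers, TKDP1, PAG2 and CSH2 were above background on none of the 8, while IFNT2 and TKDP4 were so in 1 cow of day 15 each. CSH2 and PRP1 were too dim over the series to be tested, though PRP1 was above background on at least 1 of the 8.

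Of 13164 probes tested, 942 were called between the days, with a limma Benjamini-Hochberg adjusted p below 0.05 and more than 2-fold change (7.16%). Of these, 381 were higher on day 18 (2.89%) and 561 lower (4.26%), from 175 and 241 named genes. The counts for gene lists below are to be read beside these shares. The median log2 fold change over all probes was 0.02, and 51.7% of the probes were higher on day 18. Among the 712 called probes that were above background on all 8 arrays, 324 were higher and 388 lower. Scaling each array to its 75th percentile, which moved the median of all probes by -0.12, gave 1001 calls of which 25.6% were higher, against 40.4% with the array median. For 710 of the called probes the 4 cows of 1 day lay entirely beyond the 4 cows of the other. With 4 cows against 4, the exact two-sided permutation test cannot give a p below 0.0286, which is its value for every gene whose groups did not overlap.

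A pair of settings ended most calls. With scan day as a random block 54 probes remained called, and a fit to the 8 cyclic arrays alone called 157. With scan day as a block, CCL2, ABCB1, SLTM, STAC, EAF2, PTPA, TMEM129, ELN and SDF2L1 stayed called. The same genes also stayed called with the 8 cyclic arrays alone and in each fit that left out 1 cyclic cow. The other genes chosen by the rule for named genes had a limma adjusted p above 0.05 with scan day as a block. RDH16, CTSD, VCAN, PNPLA2, ID3 and SELP were also called with the 8 arrays alone.

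The receptors of the luteolytic switch were high in 3 of the 4 cows of day 18 and not in the cow of replicate 1. OXTR, the oxytocin receptor, gave 2.59, 2.04, 1.19 and 3.46 array medians in the 4 cows of day 15 and 0.281, 46.3, 40.6 and 74.4 in the 4 cows of day 18. The lowest and the 3 highest of the 8 cows were thus all of day 18. The log2 difference was 2.71 (SE 1.28) and was not called (limma adjusted p = 0.176; exact permutation p = 0.143). Without replicate 1 of day 18 it was 4.59 (SE 0.48, adjusted p = 0.000418) and was called. OXTR was the member of this list with the largest difference, and leaving out that cow was 1 of 8 fits that each left out 1 of the cyclic cows.

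The same cow was low in other steroid and prostaglandin genes. PGR, the progesterone receptor, gave 4.77, 4.97, 5.67 and 3.83 array medians on day 15 and 4.71, 10.5, 10.9 and 27.3 on day 18. Its replicate 1 of day 18 lay inside the range of day 15, and the other 3 cows lay above it. The log2 difference was 1.21 (limma adjusted p = 0.0574) with all cows and 1.62 (adjusted p = 0.00553) without replicate 1. ESR1, estrogen receptor alpha, had a pair of probes that differed in their call. The brighter gave 0.0625, 0.0684, 0.0863 and 0.066 on day 15 and 0.0547, 0.158, 0.172 and 0.211 on day 18, with replicate 1 again lowest (log2 0.92, adjusted p = 0.105; 1.35 and 0.00501 without it). The dimmer gave 0.0203, 0.0229, 0.0402 and 0.00966 against 0.0552, 0.0975, 0.122 and 0.101 and was called at a log2 difference of 2.13 (SE 0.37, adjusted p = 0.00421), although it was above background in only 1 of the 4 cows of day 15 and 3 of the 4 of day 18. The remaining members of the list, among them the glucocorticoid receptor NR3C1 (log2 0.63), estrogen receptor beta ESR2 (-0.45), the membrane progesterone receptor component PGRMC1 (-0.37) and oxytocin itself, OXT (-0.31), were not called. In all, 0 of the 14 tested genes of luteolytic signalling and steroid receptors were called with all cows, at a median log2 difference of 0.07. Without replicate 1 of day 18, 3 were called higher, OXTR, PGR and ESR1. That cow was singled out by its low values in these same genes, so this fit is no separate support for their rise. Across the fits that each left out 1 cyclic cow, the lowest log2 difference was 1.90 for OXTR, 0.77 for PGR and 0.70 for the brighter ESR1 probe. Over all 13164 probes that fit called 767 higher and 798 lower, against 381 and 561 with all cows.

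**Figure D1:**
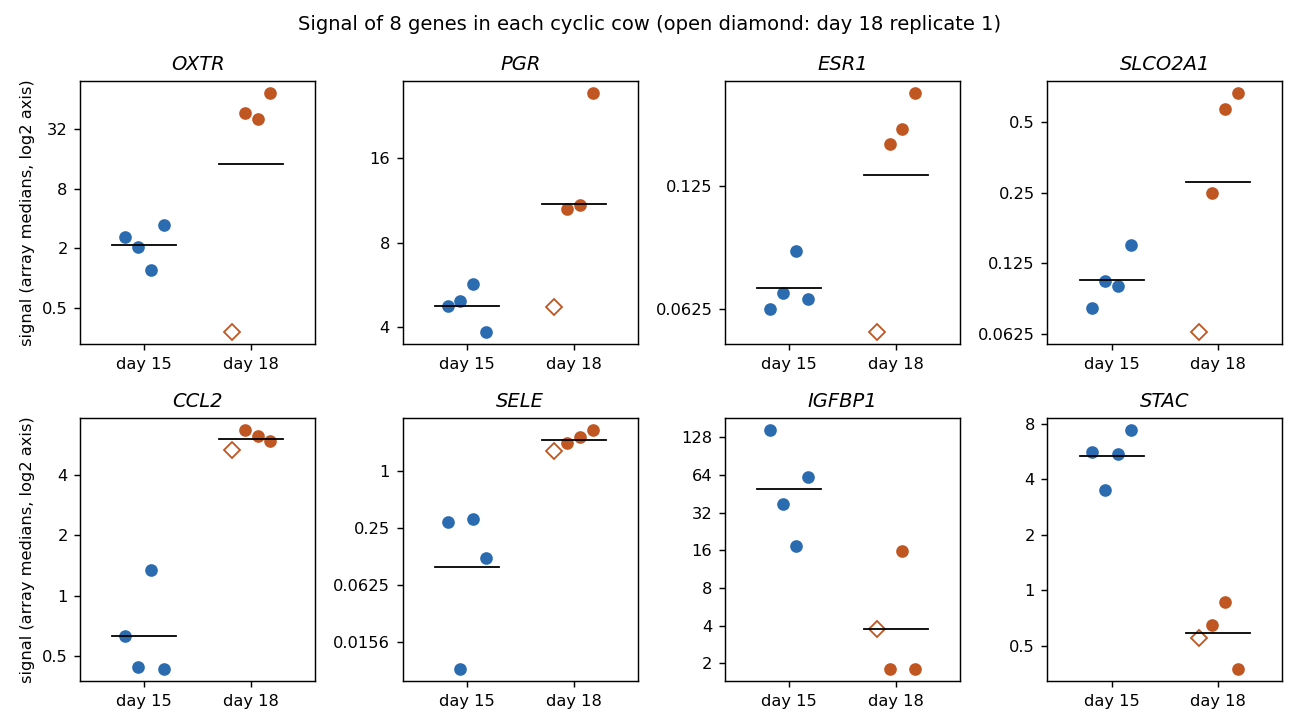
Signal of OXTR, PGR, ESR1 (brighter probe), SLCO2A1, CCL2, SELE, IGFBP1 and STAC in each cyclic cow, in array medians on a log2 axis, with 1 point per cow and a line at the mean of the log2 values of each day. The open diamond is replicate 1 of day 18, which lies below every cow of day 15 for OXTR (0.281), ESR1 and SLCO2A1 and with the other cows of its day for CCL2, SELE and STAC.

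The enzymes that make prostaglandin F2alpha were not called, while receptors and side branches of the pathway were. PTGS2, the inducible cyclooxygenase, gave 56.2, 11.8, 13.5 and 37.1 array medians on day 15 and 6.55, 53, 93.3 and 13.7 on day 18. The groups overlapped widely, and the log2 difference was 0.11 (SE 0.70, limma adjusted p = 0.94). AKR1B1, an aldose reductase with prostaglandin F synthase activity, gave 0.17, the prostaglandin E synthase PTGES 0.36, the degrading enzyme HPGD 0.01 and the phospholipase PLA2G4A -0.52 on the log2 scale, none of them called. PTGS1 was above background in 0 cyclic cows and the prostaglandin F receptor PTGFR in 1, and neither was tested. SLCO2A1, the prostaglandin transporter, gave 0.0804, 0.105, 0.1 and 0.15 on day 15 and 0.0636, 0.249, 0.571 and 0.665 on day 18. As with OXTR, the cow of replicate 1 was the lowest and the other 3 of its day were the highest (log2 1.39, adjusted p = 0.125; 2.10 and 0.00478 without that cow). The lowest log2 difference with any 1 cyclic cow left out was 0.97.

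The 22 tested prostaglandin genes had a median log2 difference of 0.00. Of them 3 were called higher and 2 lower, against 2.89% and 4.26% of all probes. The rises were in PTGER4 and PTGER2, both receptors for prostaglandin E2, and in the thromboxane synthase TBXAS1. PTGER4 gave 4.01, 2.9, 7.8 and 1.51 array medians on day 15 and 11.9, 6.77, 7.77 and 47.3 on day 18 (log2 1.94, SE 0.59, limma adjusted p = 0.0482). PTGER2 gave 0.646, 0.245, 0.416 and 0.649 against 0.523, 2.25, 1.25 and 1.27 (log2 1.36, SE 0.41, adjusted p = 0.0485). The days overlapped for both receptors and for TBXAS1 (log2 1.89, adjusted p = 0.0257). All 3 calls were lost when any 1 of replicates 3 and 4 of day 18 was left out. The falls were in PTGDS, a prostaglandin D synthase, and TBXA2R, the thromboxane receptor. PTGDS gave 64.4, 83.6, 83.9 and 94.9 on day 15 and 50.2, 30.6, 42.3 and 12.4 on day 18. Its days did not overlap, and it fell 2.70-fold (log2 -1.43, SE 0.35, adjusted p = 0.0196). TBXA2R fell by 1.26 on the log2 scale (SE 0.24, adjusted p = 0.00666) without overlap, but was above background in only 1 of the 4 cows of day 18. Neither fall lost its call when any 1 cow was left out.

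The largest fall of all genes named here was in a secreted luteal-phase protein. IGFBP1, an insulin-like growth factor binding protein that the progesterone-dominated endometrium secretes, gave 147, 37.8, 17.2 and 61.9 array medians on day 15 and 3.76, 1.8, 15.8 and 1.8 on day 18. The cows of day 15 were all higher, though the lowest of them and the highest of day 18 nearly met. The fall was 13.2-fold (log2 -3.73, SE 0.75, limma adjusted p = 0.00874). CST6, a secreted cysteine protease inhibitor, gave 551, 487, 302 and 602 on day 15 and 186, 218, 283 and 206 on day 18, a fall of 2.13-fold (adjusted p = 0.0189) without overlap. The list moved both ways, since the muscle growth inhibitor MSTN (log2 1.67, adjusted p = 0.0175) and the binding protein IGFBP3 (log2 1.34, adjusted p = 0.0305) were called higher. MSTN gave 0.963, 0.713, 0.465 and 0.804 against 0.961, 4.53, 2.59 and 2.37, so that replicate 1 of day 18 again lay among the cows of day 15. Calls were lost without replicate 4 of day 15 (CST6), without replicate 2 of day 18 (MSTN) and without any 1 of 5 cows (IGFBP3).

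In all, 2 of the 27 tested luteal-phase secretory and epithelial genes were called higher and 2 lower, against 2.89% and 4.26% of all probes. Their median log2 difference was 0.22. SERPINA14, a uterine serpin placed in this list, gave 17.5, 4.59, 2.94 and 1.40 array medians on day 15 and 0.67, 15.1, 5.72 and 143 on day 18. Its range on day 18 enclosed that of day 15, and the log2 difference was 1.16 (SE 1.18, limma adjusted p = 0.55). The glucose transporters SLC2A1 (log2 -1.44, adjusted p = 0.064) and SLC5A1 (-1.33, 0.12), the opioid precursor PENK (-1.73, 0.282) and the fatty acid binding protein FABP3 (-1.52, 0.207) were not called. Of 14 tested genes of the insulin-like growth factor system, IGFBP3 was called higher and IGFBP1 lower, and the growth factors IGF1 (log2 0.01) and IGF2 (-0.75) were not called. Among 20 tested estrogen-responsive genes only the lysosomal protease CTSD was called, at 51.2, 47, 37.7 and 31.4 on day 15 and 10, 15.3, 19.6 and 15.4 on day 18. It thus fell 2.80-fold without overlap (adjusted p = 0.0069), and no member was called higher. Without replicate 1 of day 18, the cow singled out by its low receptor values, 5 members were called higher and 1 lower. Among the 5 were OXTR, PGR and ESR1 of the receptor list. That fit called 767 of 13164 probes higher and 798 lower. The list's median was 0.08 with all cows.

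The 12 largest rises among probes above background in all 8 cows and without overlap of the days came from genes of several kinds. NPPC, the precursor of C-type natriuretic peptide, gave 0.297, 0.168, 0.268 and 0.45 array medians on day 15 and 3.17, 0.933, 1.19 and 17 on day 18. All 4 cows of day 18 were higher, with replicate 4 far above the others, and the rise was 9.98-fold (log2 3.32, SE 0.79, limma adjusted p = 0.0186). CCL2, the chemokine that attracts monocytes, gave 0.629, 0.444, 1.34 and 0.433 on day 15 and 5.32, 6.7, 6.2 and 5.9 on day 18. This rise of 9.47-fold (log2 3.24, SE 0.41, adjusted p = 0.000782) was even among the cows, replicate 1 of day 18 included. ABCB1, the efflux pump P-glycoprotein, gave 0.166, 0.295, 0.184 and 0.161 against 0.667, 0.75, 1.26 and 1.12 and rose 4.70-fold (adjusted p = 0.000963). A dimmer second probe of ABCB1, above background in only 1 cow of day 18, did not show it (log2 0.12, adjusted p = 0.904).

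Among the other large rises, SLTM, a nuclear RNA-binding protein, went from 0.621, 0.532, 1.01 and 1.29 array medians on day 15 to 2.53, 4.09, 2.77 and 4.29 on day 18, a rise of 4.11-fold (limma adjusted p = 0.00106). ELF5, an epithelial transcription factor, rose by 2.52 on the log2 scale from 0.0568 to 0.163 array medians on day 15 to 0.188 to 1.40 on day 18. CHORDC1, a co-chaperone of Hsp90 (2.36), the organelle transport adaptor MLPH (1.90), the adhesion molecule ALCAM (1.88) and the secreted protein CTHRC1 (1.85) followed. SELP is described with the endothelial genes. Of these genes, CTHRC1 lost its call when any 1 of 7 of the 8 cows was left out (all but replicate 1 of day 18), NPPC without replicate 2 of day 15, and SELP without that cow or replicate 4 of day 18.

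Below IGFBP1, the 12 largest falls were led by STAC, an adaptor protein, and by enzymes. STAC gave 5.62, 3.5, 5.53 and 7.45 array medians on day 15 and 0.555, 0.65, 0.864 and 0.375 on day 18. Every cow of day 15 was several times above every cow of day 18, and the fall was 9.13-fold (log2 -3.19, SE 0.37, limma adjusted p = 0.000733). PSPH, the last enzyme of serine synthesis, gave 27.8, 3.37, 4.11 and 4.37 against 1.32, 0.599, 0.794 and 0.864, a fall of 7.47-fold in which replicate 1 of day 15 stood far above the rest. EAF2, a transcription elongation cofactor, fell 6.32-fold (adjusted p = 0.00104). PTPA, an activator of protein phosphatase 2A, was very even, at 41.6, 49, 41.5 and 41.2 on day 15 and 6.42, 10.4, 10.1 and 10.6 on day 18 (log2 -2.23, SE 0.29, adjusted p = 0.000865).

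LDHD, the D-lactate dehydrogenase, gave 1.28, 1.24, 1.26 and 1.93 array medians on day 15 and 1.23, 0.515, 0.28 and 0.079 on day 18 (log2 -2.03, limma adjusted p = 0.0396). Replicate 1 of day 18 was close to the cows of day 15. Other members were the secreted protein MYOC (log2 -2.31), the hair keratin KRT35 (-2.26), the guanine nucleotide enzyme GMPR (-2.08), the endoplasmic reticulum protein TMEM129 (-2.04) and PROK1, an angiogenic factor of endocrine glands (-1.87). LDHD lost its call without any 1 of 7 of the 8 cows, again all but replicate 1 of day 18, and MYOC without replicate 2 of day 15 or replicate 4 of day 18.

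A further 92 called probes were not well above background in any cow of day 18, against 13 in no cow of day 15. For those the fold is a lower bound: each dim array was given the probe's own signal or the dimmest signal that counted as well above background there, whichever was higher. By these bounds the sodium-dependent inositol carrier SLC5A11 was at least 3.29-fold lower on day 18 (limma adjusted p = 0.0106), the retinol dehydrogenase RDH16 at least 2.59-fold (0.00728) and LYPD4 at least 2.34-fold (0.00679). NR5A1, the nuclear receptor of steroid-making cells, was at least 1.86-fold lower (adjusted p = 0.0106), and CABP4 and GSDMC at least 1.37-fold and 1.35-fold. Each adjusted p belongs to the limma fit on the signals as measured, and the bounds themselves were not tested. CABP4 lost its call without any 1 of 4 cows. No named gene met the same rule as a rise. The lowest signal that counted as well above background was 0.0304 to 0.0475 array medians on day 15 and 0.066 to 0.095 on day 18, so a gene could drop below it more easily on the later day.

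**Figure D2:**
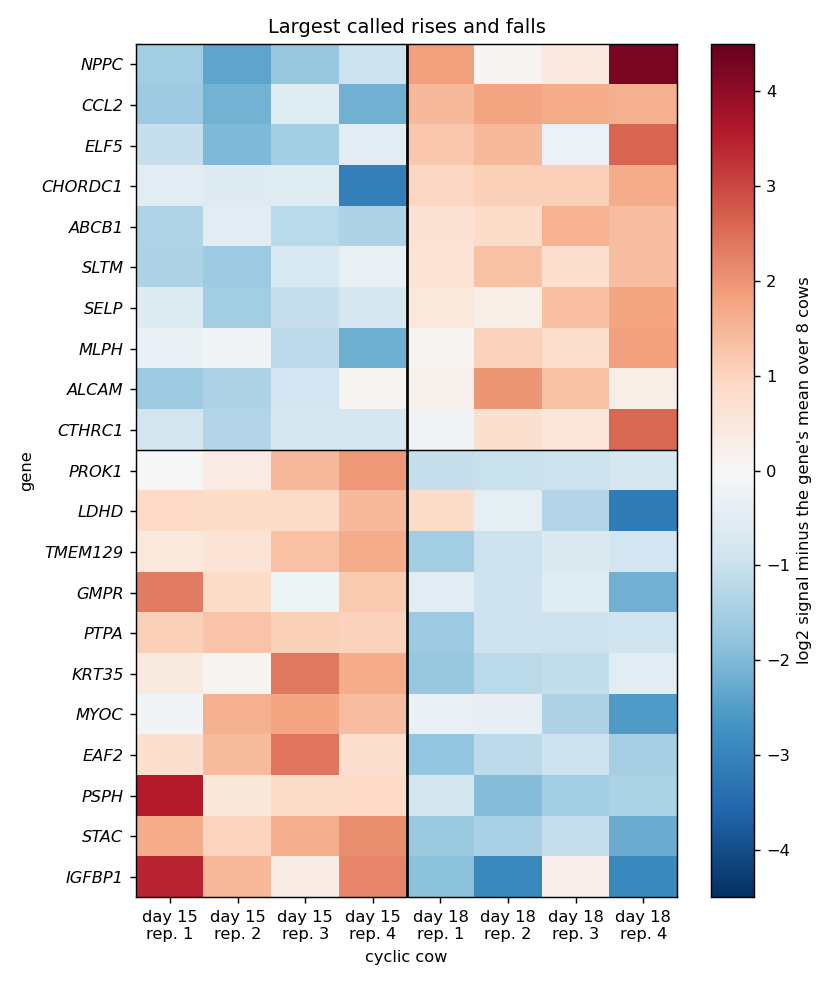
Log2 signal of 10 of the largest called rises (upper block) and 11 of the largest called falls (lower block) in each cyclic cow, as the difference from the gene's mean over the 8 cows. Replicate 1 of day 18 resembles the other cows of its day for CCL2, STAC and EAF2, and is near day 15 for LDHD.

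Endothelial genes were higher on day 18 more often than probes at large. Of 23 tested, 19 were higher against 51.7% of all probes, and the median log2 difference was 0.58 against 0.02. Calls were 3 higher and 0 lower, against 2.89% and 4.26% of all probes. SELE, the E-selectin that activated endothelium shows to leukocytes, gave 0.288, 0.00812, 0.314 and 0.121 array medians on day 15 and 1.64, 1.99, 2.28 and 2.73 on day 18. The days were far apart (log2 4.45, SE 0.93, limma adjusted p = 0.0101), but replicate 2 of day 15 was not well above background and its low value enlarges the fold. SELP, the P-selectin, gave 4.02, 2.04, 2.89 and 3.67 against 8.38, 7.25, 15.1 and 20.5 and rose 3.84-fold (adjusted p = 0.0177). ANGPT1, a ligand of the endothelial receptor TEK, was called at a log2 difference of 2.51 (adjusted p = 0.0141), from above background in 1 cow of day 15 to 3 of day 18.

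The markers that define the endothelium were not called: PECAM1 was at 0.71, KDR at 0.63, TEK at 0.76, CD34 at 1.16 (limma adjusted p = 0.0501) and VWF at -0.09 on the log2 scale. The level of the whole list, summed over its 23 genes, was 72.8 to 178 array medians on day 15 and 93.7 to 177 on day 18, with full overlap. In whole tissue, fewer cells of a type and less RNA per cell cannot be told apart.

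CCL2 included, 4 of 33 tested chemokines, cytokines and receptors were called higher and 0 lower, against 2.89% and 4.26% of all probes. Their median log2 difference was 0.38. IL6, an inflammatory cytokine, gave 0.0244, 0.0274, 0.127 and 0.0443 array medians on day 15 and 0.152, 0.207, 0.198 and 0.309 on day 18 (log2 2.25, SE 0.45, limma adjusted p = 0.00822). CCL19, which attracts lymphocytes, gave 0.023, 0.0253, 0.278 and 0.00966 against 0.328, 0.253, 0.603 and 2 (log2 3.99, SE 0.88, adjusted p = 0.0129). Both were above background in only 1 of the 4 cows of day 15 and in all 4 of day 18, and for CCL19 the days overlapped. CXCL16 gave 3.36, 3.5, 3.2 and 4.37 against 5.98, 9.32, 11.6 and 10.8 without overlap (log2 1.35, adjusted p = 0.0103).

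CCL8, a chemokine for monocytes and other leukocytes, gave 0.973, 0.308, 1.7 and 0.198 array medians on day 15 and 2.29, 3.76, 1.77 and 1.08 on day 18. It was not called (log2 1.83, limma adjusted p = 0.0655). CCL14 (log2 1.05), CCL16 (0.92) and CXCL10 (0.65) were not called either. CCL11 was above background in 3 cows of day 15 and in 0 of day 18, and its difference was not called (adjusted p = 0.143). Of the genes of leukocytes themselves, 0 of 27 T, natural killer and B cell genes were called higher and 1 lower (CD79A, of B cells, log2 -1.20), and 0 of 30 myeloid genes higher and 1 lower (ALOX5, -1.28), against 2.89% higher and 4.26% lower among all probes. The list medians were -0.27 and 0.17, and ALOX5 lost its call without any 1 cow of day 18 and without replicate 3 or 4 of day 15.

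Matrix proteases and their inhibitors moved in both directions. The median log2 difference of 31 tested proteases and inhibitors was 0.01. Of them 3 were called higher and 3 lower, against 2.89% and 4.26% of all probes. Among the rises were the inhibitors TIMP3 and TIMP1. TIMP3 gave 9.05, 6.53, 10.8 and 5.69 array medians on day 15 and 12.6, 22.2, 24.6 and 33.2 on day 18 (log2 1.5, SE 0.32, limma adjusted p = 0.0112) without overlap. TIMP1 gave 20, 13.4, 12.4 and 12.1 against 14.9, 27.8, 41.3 and 54.8 (log2 1.13, adjusted p = 0.0406), and replicate 1 of day 18 lay among the cows of day 15. Of the 3 falls, CTSD and CST6 are given above, and the gelatinase MMP9 gave 0.482, 0.524, 0.264 and 0.204 against 0.11, 0.136, 0.15 and 0.155 (log2 -1.32, adjusted p = 0.0161).

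Among 28 matrix proteins 1 was called higher and 2 lower, against 2.89% and 4.26% of all probes. The proteoglycan VCAN gave 4.07, 3.31, 1.98 and 4.79 array medians on day 15 and 10.2, 10.4, 8.58 and 11.4 on day 18, a rise of 3-fold (limma adjusted p = 0.0047) without overlap. ELN, the elastic fibre protein, gave 2.82, 2.92, 3.83 and 2.52 against 1.26, 1.04, 1.17 and 1.25, a tight fall of 2.54-fold (log2 -1.34, SE 0.17, adjusted p = 0.000874). The basement membrane protein NID1 was called at the margin (log2 -1.02, adjusted p = 0.0432), was above background in 1 cow of day 18, and lost its call without any 1 of 7 of the 8 cows. The collagens COL1A1 (log2 0.42), COL1A2 (0.73) and COL3A1 (-0.55) were not called. TIMP1 lost its call without any 1 of 6 cows, all but replicate 1 of either day.

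The 29 genes of Wnt, TGF-beta, BMP and activin signalling had a median log2 difference of -0.19. Of them 2 were called higher and 3 lower, against 2.89% and 4.26% of all probes. The rises were in ID1 and ID3, inhibitors of DNA binding that BMP signals induce. ID1 gave 39.2, 27.4, 49.1 and 20.4 array medians on day 15 and 90.4, 105, 97 and 58.7 on day 18 (log2 1.41, SE 0.30, limma adjusted p = 0.0104), and ID3 rose by 1.34 (adjusted p = 0.00878). The falls were in MSX2, a homeobox gene and BMP target, the BMP signal transducer SMAD1 and the Wnt antagonist SFRP5. MSX2 gave 9.27, 11.3, 15.1 and 5.44 against 1.8, 3.5, 3.58 and 3.3 (log2 -1.71, SE 0.36, adjusted p = 0.0101). SMAD1 fell by 1.26 (adjusted p = 0.00289) and SFRP5 by 1.13 (adjusted p = 0.0101), and for all 5 genes the days did not overlap.

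Genes of energy metabolism and of protein folding leaned upward. Of 74 tested subunits of the respiratory chain and ATP synthase, 59 were higher on day 18, and the median log2 difference was 0.38. Calls were 5 higher and 0 lower, against 2.89% and 4.26% of all probes. CYCS, cytochrome c, gave 6.65, 4.39, 5.9 and 3.45 array medians on day 15 and 9.05, 11, 11.7 and 31.2 on day 18 (log2 1.48, SE 0.36, limma adjusted p = 0.0201) without overlap. UQCR11 (1.25), NDUFS6 (1.16), COX7A2 (1.12) and NDUFC1 (1.05), all subunits of respiratory complexes, were called too, and each of the 5 calls was lost when replicate 2 of day 15 was left out. Without replicate 1 of day 18 the count was 10 higher and 0 lower, in a fit that called 767 of 13164 probes higher and 798 lower.

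Of 39 tested chaperones and folding genes of the endoplasmic reticulum, 32 were higher, at a median log2 difference of 0.54. Calls were 4 higher and 1 lower, against 2.89% and 4.26% of all probes. CANX, a lectin chaperone, gave 1.24, 1.47, 0.896 and 1.16 array medians on day 15 and 1.65, 3.54, 3.39 and 3.64 on day 18 (log2 1.31, SE 0.28, limma adjusted p = 0.0103). DNAJB11 (1.73), CRELD2 (1.5) and DNAJA1 (1.01) were called as well, and each lost its call without replicate 2 or 3 of day 15 or replicate 4 of day 18. SDF2L1, an endoplasmic reticulum protein of the same group, went the other way, at 0.257, 0.248, 0.292 and 0.253 against 0.0687, 0.0861, 0.0866 and 0.0974. It fell 3.11-fold (log2 -1.64, SE 0.18, adjusted p = 0.00067) with little spread between cows, and was above background in 1 cow of day 18. HSPA5, the main endoplasmic reticulum chaperone, was at 1.06 (adjusted p = 0.116) and was not called.

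The immediate early and stress genes had a median log2 difference of 0.85, or 0.61 with a trend on G and C content removed, with 12 of 19 higher and 0 called. FOS (log2 1.29), EGR1 (0.91), ATF3 (0.85) and GADD45G (2.43) were among the higher members and JUN (-0.99) among the lower, each with a limma adjusted p above 0.05. Without replicate 1 of day 18, 3 were called higher, in a fit that called 767 of 13164 probes higher. Of 12 genes of ciliated epithelium 10 were higher, at a median of 0.79, and CAPS, a calcium-binding protein, was called (log2 1.63, adjusted p = 0.0266). CAPS lost that call without replicate 3 of day 15 or replicate 2 or 4 of day 18. Cytosolic ribosomal protein genes leaned slightly down, with 17 of 65 higher, 0 called and a median of -0.20, which became -0.01 with quantile normalisation. Cell cycle genes did not lean, with 13 of 28 higher, 0 called and a median of -0.04.

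Solute carriers, which move nutrients and ions across membranes, were called lower in 9 and higher in 3 of 111 tested, and over all probes 4.26% were lower and 2.89% higher. Without replicate 1 of day 18 the count was 10 lower and 6 higher, in a fit that called 798 of 13164 probes lower and 767 higher. The rises were in amino acid carriers and a phosphate carrier. SLC1A5, a glutamine carrier, gave 3.72, 1.41, 2.67 and 2.64 array medians on day 15 and 2.82, 11.4, 12.5 and 9.25 on day 18 (log2 1.67, SE 0.45, limma adjusted p = 0.03). SLC7A5, a carrier of large neutral amino acids, was at 1.55 (adjusted p = 0.0418), and SLC25A3, the mitochondrial phosphate carrier, at 1.01 (adjusted p = 0.0297). For all 3 the days overlapped, and each lost its call without replicate 2 of day 15 or replicate 3 or 4 of day 18. The falls after SLC5A11 were in SLC5A6, a vitamin carrier (-1.55), SLC25A29, a mitochondrial basic amino acid carrier (-1.53), SLC43A3 (at least 1.16-fold lower), the iron exporter SLC40A1 (-1.45) and the GDP-fucose carrier SLC35C1 (-1.19). SLC25A29 gave 42.5, 44.8, 48.2 and 23.9 on day 15 and 9.53, 13.7, 20.8 and 11.6 on day 18 without overlap (adjusted p = 0.00745). Of these, SLC40A1 lost its call without any 1 of 5 cows and SLC35C1 without replicate 2 of day 18.

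Among 37 genes of lipid and sterol metabolism 1 was called higher and 3 lower, against 2.89% and 4.26% of all probes. Their median log2 difference was 0.13. HMGCS1, an enzyme of cholesterol synthesis, was at 1.16 (limma adjusted p = 0.0434) with overlapping days. PNPLA2, the main triglyceride lipase, gave 3.11, 4.1, 3.14 and 3.41 array medians on day 15 and 1.42, 1.33, 1.69 and 1.31 on day 18, an even fall of 2.39-fold (adjusted p = 0.00341). HSD17B1, which forms estradiol, fell by 1.31 (adjusted p = 0.0331) and the apolipoprotein APOA1 by 1.10 (adjusted p = 0.0385). HMGCS1, HSD17B1 and APOA1 each lost their call without any 1 of 6 of the 8 cows.

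Markers of the cell types in the tissue gave few calls. Of 22 epithelial genes ELF5 was called higher and none lower, at a median log2 difference of 0.05, with CDH1 at -1.80 (limma adjusted p = 0.0996) and CLDN10 at 2.36 (0.156). Of 12 stromal genes VIM was called, at 21.2, 16.3, 16.9 and 29.6 array medians on day 15 and 30.6, 40.4, 41.4 and 59.5 on day 18 (log2 1.03, adjusted p = 0.0364), and the median was 0.07. Smooth muscle genes had 0 of 14 called and a median of 0.01. VIM lost its call without any 1 of 6 of the 8 cows. Of 5 erythrocyte genes, a sign of blood in the tissue, 1 was higher, AHSP was called lower (-1.18) and the median was -1.16, or 0.00 with the dim genes at their bound. Their summed level was 4.18 to 5.27 array medians on day 15 and 1.62 to 4.62 on day 18. HBB was above background in no cow and the AHSP call was lost without replicate 4 of either day. The part of blood content in the other results was not tested.

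Of 16 tested trophoblast genes, 5 were above background in none of the 8 cows, ELF5, which epithelium also expresses, was called higher, and PAG10 was at least 1.05-fold lower, a call that was lost without any 1 of 4 cows. Their median log2 difference of 0.65 became 0.00 with the dim genes at their bound. Interferon-stimulated genes, which mark the conceptus signal, had a median log2 difference of 0.04. Calls were 2 of 30 higher and 0 lower, against 2.89% and 4.26% of all probes. Those were GBP5, at 0.583, 0.554, 0.81 and 0.659 array medians on day 15 and 1.6, 0.945, 1.86 and 1.44 on day 18 (log2 1.14, limma adjusted p = 0.0299), and the RNA sensor EIF2AK2 (1.07, 0.0305). GBP5 lost its call without any 1 of 4 cows and EIF2AK2 without another set of 4. ISG15 (0.19) and MX1 (0.10) were not called.

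**Figure D3:**
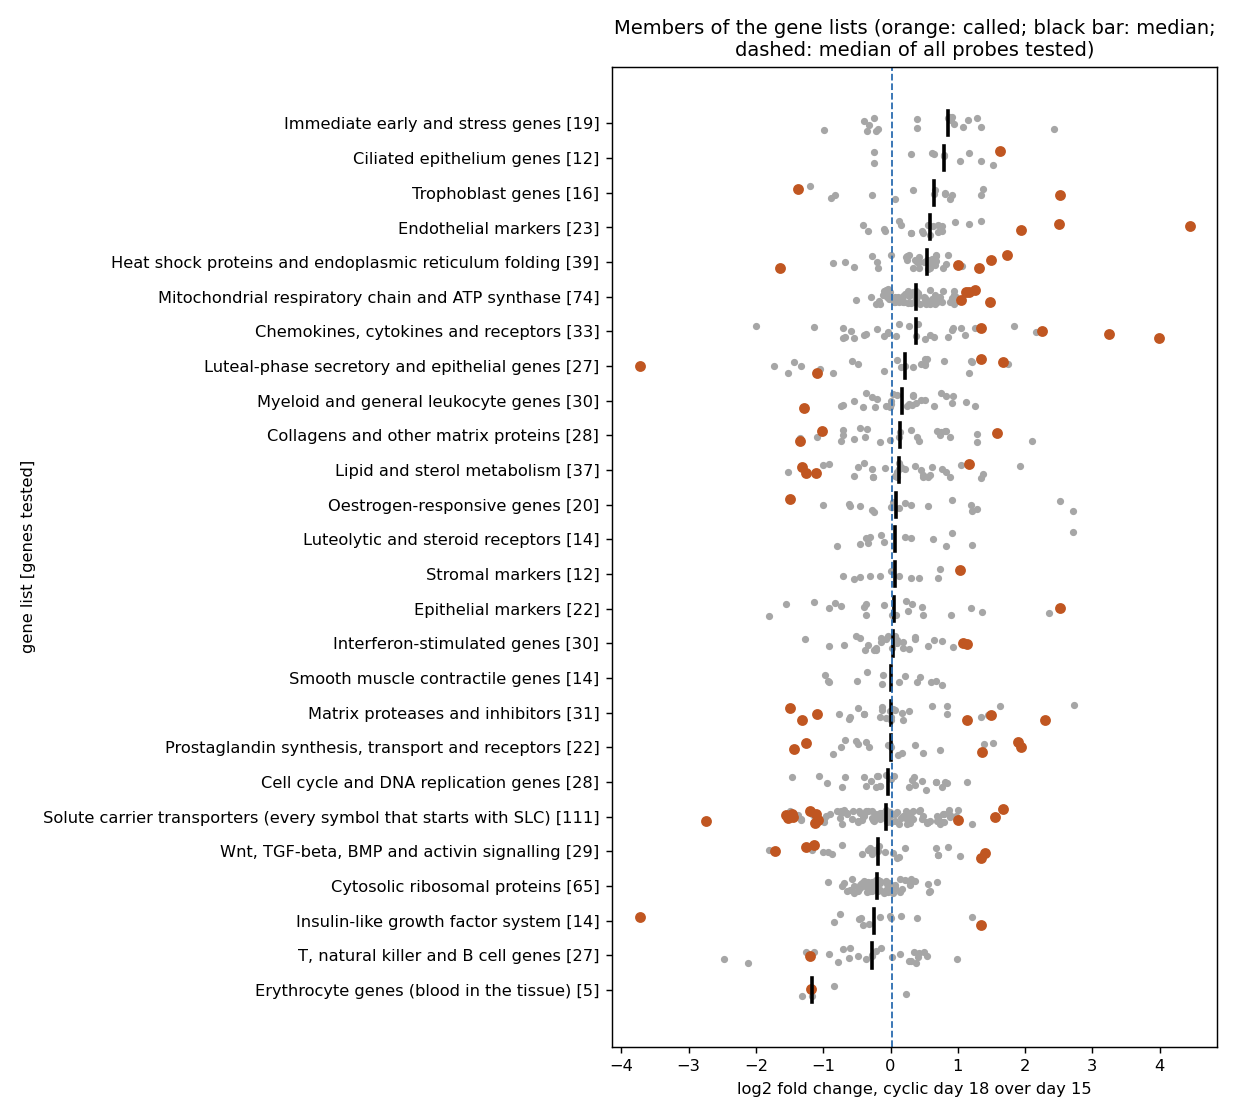
Log2 fold change from day 15 to day 18 of the cycle for each tested member of 26 gene lists, 1 point per gene (its brightest probe), sorted by the list median (black bar). Orange points were called, and the dashed line is the median of all probes tested, 0.02. Immediate early, ciliated, endothelial, folding and respiratory chain genes sit to the right of it, and their medians lie between 0.38 and 0.85.

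The direction of the calls went with the base composition of the probes. The median share of G and C was 43.3% in all probes tested, 36.7% in those called higher and 50% in those called lower. It was 52.5% in the 54 probes that stayed called with scan day as a block. Among the 3600 probes with the least G and C (15% to 36.7%), 5.72% were called higher and 1.03% lower, at a median log2 difference of 0.31. Among the 2895 with the most (46.7% to 85%), 0.83% were called higher and 10.6% lower, at a median of -0.30. With a smooth trend on G and C content removed from each array, an alternative chosen after seeing the data, 699 probes were called, 505 of them also called without that step, and 48.2% were higher.

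Of the genes named here, 38 were no longer called with that trend removed and 2 became called. The 2 gained were the brighter ESR1 probe (log2 1.21, limma adjusted p = 0.043) and PGR (1.31, adjusted p = 0.0487). The lost calls included CTSD, which moved from -1.49 to -0.66 (adjusted p = 0.0848). Other differences moved less while their adjusted p rose above 0.05, such as PTGER4 (1.94 to 1.76), PTGER2 (1.36 to 1.21), LDHD (-2.03 to -1.85), DNAJB11 (1.73 to 1.55) and PTGDS (-1.43 to -1.21, adjusted p = 0.0502). Calls were also lost for MSTN, IGFBP3, CST6, CXCL16, VIM, GBP5 and NR5A1. Among the other lists, calls were lost for 3 of the 5 respiratory chain genes (NDUFS6, COX7A2 and NDUFC1), 3 of the 4 risen folding genes (DNAJB11, CRELD2 and DNAJA1), all 3 risen solute carriers, and ID3, SMAD1, SFRP5 and CTHRC1. PTPA and TMEM129, whose probes held 78.3% G and C, kept their calls but moved from -2.23 to -1.37 and from -2.04 to -1.17. The list medians of 0.58 for endothelium, 0.38 for the respiratory chain and 0.54 for folding were 0.52, 0.38 and 0.49 after that step. The part of base composition, RNA quality or hybridisation in these results was not tested further.

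**Figure D4:**
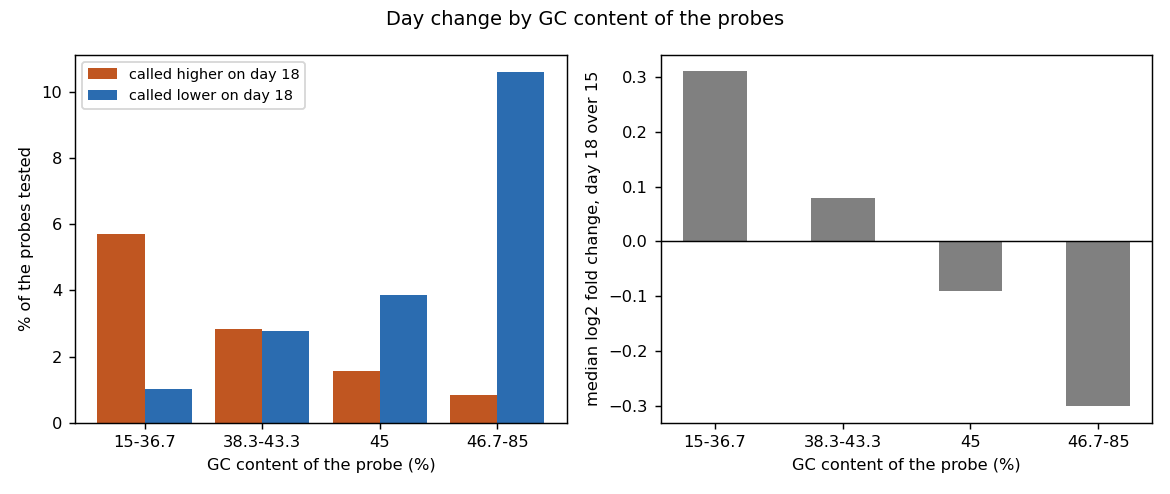
Left, percent of the tested probes called higher (orange) or lower (blue) on day 18 in 4 classes of G and C content of the probe. Right, the median log2 fold change from day 15 to day 18 in the same classes, which falls from 0.31 to -0.30 as G and C content rises.

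The changes in the cycle were set against those in the pregnant cows of the same days. A test of the difference between the change in pregnancy and the change in the cycle called 358 probes (2.72%). With scan day as a block 0 were called. Of the 358, 112 were also called in the cycle, an overlap that is favoured because the same cyclic arrays enter both tests. Among the genes named here, SELE rose in the cycle and was at -1.98 on the log2 scale in pregnancy, where it was not called (difference -6.43, limma adjusted p = 0.0267). ABCB1 (difference -2.09, adjusted p = 0.0267), SLTM (-2.25, 0.0152), MSTN (-2.49, 0.0366) and VIM (-2.05, 0.0251) likewise rose in the cycle. In pregnancy ABCB1 (0.14), SLTM (-0.21) and MSTN (-0.81) were not called, while VIM was called lower (-1.02, limma adjusted p = 0.0403). STAC fell in the cycle and was at -0.12 in pregnancy (difference 3.07, adjusted p = 0.0142). GMPR (2.66, 0.0495), SLC5A11 (3.73, 0.0333), NR5A1 (1.67, 0.042), SDF2L1 (1.23, 0.0267) and PNPLA2 (1.41, 0.0295) also fell in the cycle and differed upward in pregnancy. SLC5A11 and NR5A1 were not well above background in any cyclic cow of day 18, so the sizes of their differences rest on signals at background. For SELE the size rests partly on such signals, since it was well above background in 3 cyclic cows of day 15 and 2 pregnant cows of day 18. For some genes the groups also differed in mean level on day 15. Mean array medians in NP15, NP18, P15 and P18 were 0.201, 0.95, 0.838 and 0.927 for ABCB1. They were 0.863, 3.42, 3.04 and 2.65 for SLTM, and 5.53, 0.611, 1.75 and 1.81 for STAC. For these genes P15 was nearer to P18 than NP15 was. For MSTN the day 15 means were close, at 0.737 in NP15 and 0.67 in P15.

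Interferon-stimulated genes gave the opposite picture. ISG15 (difference 4.09, limma adjusted p = 0.0143), MX1 (2.76, 0.0189) and GBP5 (2.29, 0.0186) differed by a larger rise in pregnancy, as did the chemokine CCL11 (6.32, 0.0211), whose size also rests on background signals in the cyclic cows of day 18, and 20 of the 30 genes of that list were called in the test of the difference. For other large cyclic changes the difference was not called: IGFBP1 fell by 3.73 in the cycle and fell by 3.0 in pregnancy (difference 0.72, SE 1.11, adjusted p = 0.764). PSPH fell by 2.90 and by 3.12 (difference -0.22, SE 0.88, adjusted p = 0.921). For OXTR, at 2.71 in the cycle and -0.03 in pregnancy, the difference of -2.74 (SE 1.89, adjusted p = 0.456) was not called either.

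**Figure D5:**
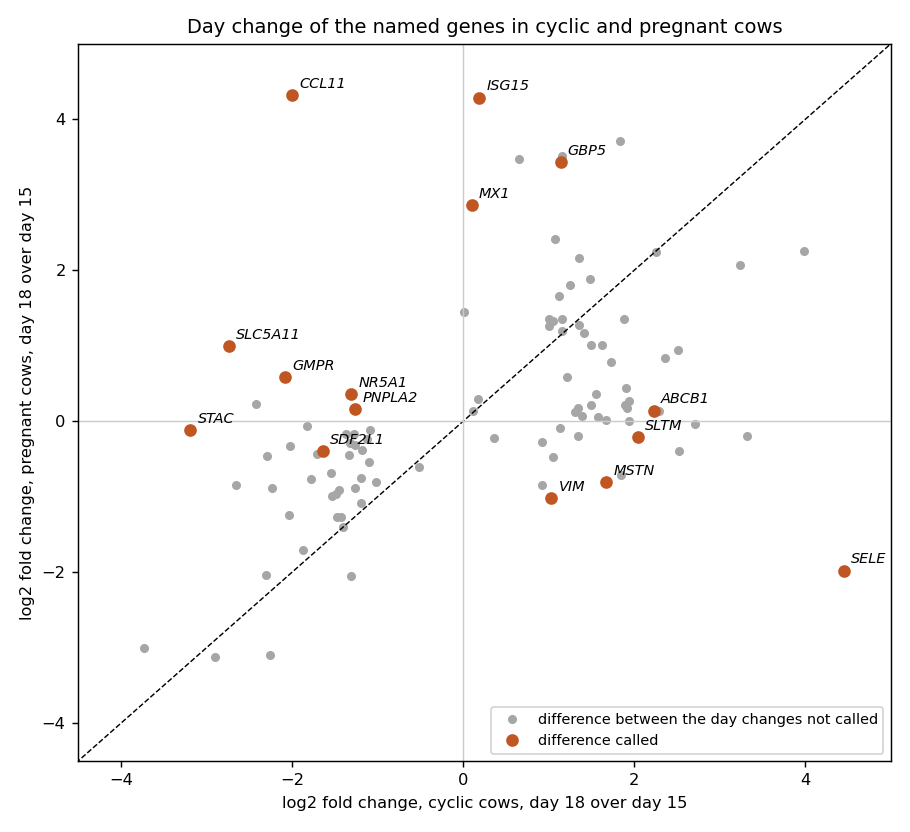
Log2 fold change from day 15 to day 18 in pregnant cows against that in cyclic cows for each gene named here, with a dashed line of equal change. Orange points were called in the test of the difference, with ISG15, MX1, GBP5 and CCL11 above the line and SELE, ABCB1, SLTM, MSTN and VIM below it.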

How the data were processed

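RNA of 15 cows was hybridised to a custom Agilent bovine array, 1 cow per array, and the submitters' processing notes name Agilent Feature Extraction 9.5. The deposited scanner files hold the processed signal of each spot as an intensity, background-corrected by that software, and the authors' value table holds log2 intensities that were used only as an alternative. Each intensity was divided by the median of the non-control probes on its array and log2 transformed. Each non-control probe had 1 spot, control spots were left out, and spots flagged as non-uniform or population outliers were set to missing. The 13164 of 15208 probes well above background on at least 3 arrays were tested. A mean per group was fitted to all 15 arrays with limma 3.58.1 in R 4.3.3 (lmFit, contrasts.fit, eBayes), as NP18 minus NP15 and as the change in pregnancy minus that in the cycle. Probes with a Benjamini-Hochberg adjusted p below 0.05 over all probes and a change over 2-fold were called. Single genes were also compared by an exact two-sided permutation test.

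Named genes were the 12 largest rises and 12 largest falls called, well above background in all 8 cyclic cows and without overlap, up to 6 lower bounds in each direction, fixed genes of luteolysis, prostaglandins, chemokines and interferon response, and up to 6 called members in each direction from each of 26 lists. PTGS1 and PTGFR, fixed but dim, were not tested. A few genes that met the rule are not reported here. The members and lists were chosen with earlier results of these data known. Lists are described by counts and medians (brightest probe per gene), without a test. Symbols (6177 probes) came from a RefSeq gene table (ARS-UCD2.0, names only), matched by accession (2487), gene ID (1967), symbol (1276), synonym (296) or description (32), and otherwise from the files (119). The number of arrays limits the precision. On simulated data with 200 of 13130 probes changed, 59.5% of changes of 1.5 on the log2 scale and 87.5% of those of 2.5 were recovered for this comparison. The simulated noise was independent between arrays and held no effect of scan day or slide, so these rates leave out that limit of the design. Replicate numbers did not pair the cows, since deviations of same-numbered cows correlated at -0.23, -0.04, -0.07 and -0.03. P15 has 3 arrays here.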

Additional observations from a re-analysis of the deposited data

Results flagged for a closer look

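In 14 of 204 groups of 4 cows tested, 1 cow lay apart from the other 3, where chance alone gives about 1 in 20 groups. Replicate 1 of day 18 was that cow for OXTR (0.281 array medians), PTPA (6.42), CANX (1.65), MSX2 (1.8) and SFRP5 (0.334). For OXTR it was below every cow of day 15, for CANX and SFRP5 it was nearer to day 15 than the other cows of its day, and for PTPA and MSX2 it was farther. On day 18, replicate 2 stood apart for RDH16 (0.0886). On day 15, replicate 4 stood apart for CHORDC1 (0.19), LDHD (1.93), ISG15 (5.77) and AHSP (0.949), replicate 2 for CTHRC1 (0.121) and PTPA (49.0), replicate 1 for PSPH (27.8) and replicate 3 for PTGES (5.04).

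By limma's test of the difference, the change from day 15 to day 18 differed between pregnant and cyclic cows for 15 of the 102 genes chosen by the rule for named genes. Over all probes the share was 2.72%. Many of the 102 were chosen for their change in the cycle, which is part of this difference, so the shares cannot be compared. The difference is given as pregnancy minus cycle on the log2 scale. It was positive, with a larger change in pregnancy, for CCL11 (6.32), ISG15 (4.09), MX1 (2.76) and GBP5 (2.29). It was 3.73 for SLC5A11, 3.07 for STAC, 2.66 for GMPR, 1.67 for NR5A1, 1.41 for PNPLA2 and 1.23 for SDF2L1, genes that fell in the cycle. It was -6.43 for SELE, -2.49 for MSTN, -2.25 for SLTM, -2.09 for ABCB1 and -2.05 for VIM, genes that rose in the cycle. With scan day as a random block none of these differences passed the threshold. SLC5A11, NR5A1 and CCL11 were not well above background in any cyclic cow of day 18, so the sizes of their differences rest on signals at background. For SELE the size rests partly on such signals, since it was well above background in 3 cyclic cows of day 15 and 2 pregnant cows of day 18. Genes outside that rule passed too, among those mentioned FABP3 (limma adjusted p = 0.0143), SLC2A1 (0.0377), NPR3 (0.0267), HAS3 (0.0299) and PLA2G3 (0.0308).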

How the results depend on the processing

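The 942 probes called between the cyclic days became 1744 with no filter on dim probes (65.2% higher), 1529 with array weights, 1421 without the fold limit, 425 with 1 probe per gene symbol, 157 with the 8 cyclic arrays alone (21.7% higher) and 54 with scan day as a random block (14.8% higher; 1732 had an unadjusted p below 0.05). The methods' t-test gave 1071 without adjustment and 137 with Benjamini-Hochberg adjustment. Leaving out 1 cow gave 616 (without NP18 replicate 4) to 1565 (without NP18 replicate 1, 837 of them shared). The other settings gave 699 to 1001, of which 25.6% (75th percentile) to 54.7% (normexp background correction) were higher. The 358 probes of the test against pregnancy became 1329 with normexp, 1332 with array weights, 179 with slide as a block, 192 with the replicate block and 0 with scan day as a block, and leaving out 1 cow gave 169 (without NP18 replicate 3) to 549 (without NP15 replicate 3), with 229 without NP15 replicate 2. With the replicate number as a block the cyclic comparison gave 828 calls. The cows share only a number, and same-numbered cows did not deviate together.

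No named gene changed direction past the threshold under any setting. Of 102 named genes, 76 lost their call with scan day as a block, 68 with the 8 cyclic arrays alone, 38 with the trend on G and C content removed (chosen after seeing the data), 16 with normexp, 13 with slide as a block (among them PTGER4, PTGER2 and TIMP1), 12 with quantile normalization, 11 with the replicate block and 10 with the 75th percentile or the authors' values. Why these counts move was not tested. Probes near background limit the falls, since the signal needed to count as above it was higher on the arrays of day 18.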

Other observations

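Genes outside the rule above, chosen after their values were seen, add 2 groups. NPR3, the clearance receptor for natriuretic peptides, gave 0.0645, 0.0206, 0.286 and 0.109 array medians on day 15 and 0.252, 0.672, 1.24 and 1.31 on day 18 (log2 3.17, SE 0.73, limma adjusted p = 0.0158), and was above background in 3 cows of day 15 and 4 of day 18. It thus moved in the same direction as NPPC, with replicate 1 of day 18 at the top of the day 15 range, and its change differed from that in pregnancy (-5.04, adjusted p = 0.0267). Of the hyaluronan synthases, HAS2 was higher on day 18 (log2 2.48, adjusted p = 0.00463), from above background in 1 cow to 3 cows, while HAS3 was lower, at 0.372, 0.426, 0.417 and 0.356 against 0.146, 0.159, 0.167 and 0.181 (log2 -1.27, adjusted p = 0.000874; 0.0461 with scan day as a block). The secreted phospholipase PLA2G3 gave 0.828, 0.328, 0.261 and 0.137 against 0.749, 4.16, 2.61 and 3.33 (log2 2.86, SE 0.55, adjusted p = 0.00649), with replicate 1 of day 18 again among the cows of day 15.

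GAPDH, a glycolytic enzyme often used as a reference gene, is on the array with 101 probes, whose log2 differences ran from 0.45 to 1.40, with 8 called higher. All 101 were also above 0 with the 75th percentile (0.33 to 1.28), with normexp (0.52 to 1.43) and with the trend on G and C content removed (0.73 to 1.68). With scan day as a block the lowest adjusted p among them was 0.283.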
